A study of Mus musculus with 6 samples.

Results

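Enzymes that add methyl groups to histone lysines, or take them off, were followed in sorted regulatory T cells (Tregs) from wild-type and IL-33-deficient mice that carried melanoma. The 36 genes encode the methyltransferases and demethylases given by name for autosomal loci, including the core subunits of the Polycomb repressive complex PRC2, and were read from the 37187 genes of the count table, of which 13626 had enough counts to be tested. All 36 were found and all 36 were tested. They comprise 23 genes for methyltransferases or their core subunits and 13 genes for demethylases. Of these, Kdm6b rose, Kmt2c and Kmt2d fell, and the other 33 did not pass the test (edgeR, adjusted p under 0.05), which 6.50% of all genes tested passed.

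Messenger RNA was sequenced in bulk from Tregs, the CD4 T cells that hold immune responses in check, sorted as CD4+CD25+GITR+ cells from lymph nodes that drain the tumour. The WT group held 3 libraries (replicates 1 to 3) from C57BL6 mice, and the KO group held 3 libraries (replicates 4 to 6) from il33-/- mice in that background. Mice of both groups had been given 300000 cells of B16.F10, a transplantable melanoma line of the same strain, under the skin, and the nodes were taken on day 14. The genotype is named for the whole mouse, with no promoter or cell type that limits the deletion, so a direct effect on Tregs and an effect through other cells of the host cannot be told apart. The labels do not say that each library came from a separate animal, and the spread that p-values are set against may therefore be partly technical.

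Methylation of histone H3 has opposite meanings at different lysines. H3K4 methylation marks promoters and enhancers in use, whereas H3K27 trimethylation, placed by PRC2, and H3K9 methylation accompany silenced chromatin. H3K36 and H3K79 methylation lie over transcribed gene bodies. In Tregs the PRC2 enzyme Ezh2 is known for holding the Foxp3-dependent programme in activated cells, and Kdm6b, also called Jmjd3, removes the H3K27 mark that PRC2 places.

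Total counts ran from 18071928 to 21165063 per library. Il33 itself had 0 to 9 counts in each library, in both groups, and could not check the genotype. The Treg marker Foxp3 ranged from 719 to 857 CPM, counts scaled to the library total, over the 6 libraries, and of 8 Treg markers Ctla4 rose in edgeR, DESeq2 and limma-voom, while 4 had an unadjusted p under 0.05 (Foxp3, Tnfrsf18, Ctla4 and Ikzf2). Summed, the 8 Treg markers ran from 4235 to 4897 CPM in WT and from 5099 to 5278 CPM in KO, without overlap, and the part of this shift in the results below was not tested. Markers of B cells, which the sort should remove, differed between the libraries: 16 of them, without Cd72 and Ighm, summed to 2493, 736 and 1923 CPM in the WT libraries (replicates 1 to 3) and to 456, 613 and 359 CPM in the KO libraries (4 to 6). These 2 genes were left out after seeing the data. With them, the 18 markers summed to 2355 to 4026 CPM in WT and 1417 to 1774 CPM in KO. Of these B cell genes, Cd72 and Ighm included, 0 of 18 passed in edgeR, 17 stood at an unadjusted p under 0.05, and DESeq2 and limma-voom called 15 and 8. Summed ranges in WT and KO were 51.5 to 67.2 and 41.3 to 53.9 CPM for 12 dendritic and myeloid genes (of 9 tested, 1 was lower in edgeR, DESeq2 called 2 and limma-voom 0), 44.7 to 50.5 and 31.6 to 42.4 CPM for 7 CD8 T and NK genes (0 of 6 tested passed in edgeR, DESeq2 or limma-voom, 3 at an unadjusted p under 0.05), and 209.9 to 229 and 245 to 256 CPM for 8 stromal genes (of 3 tested, 1 was higher in edgeR and DESeq2 and 0 passed in limma-voom). The melanocyte genes Tyr, Dct and Tyrp1 were at 0 in every library, whereas Mlana was not but had too few counts to be tested. Pmel was higher in KO by edgeR and DESeq2 but not by limma-voom. These 5 genes together summed to between 20.7 and 33.8 CPM per library.

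Kdm6b was the member of this family with the largest change and the only called member that was higher in KO. Its level was 182, 217 and 199.9 CPM in WT replicates 1, 2 and 3, and 359, 311 and 279 CPM in KO replicates 4, 5 and 6. Every KO library lay above every WT library, with a gap between 217 and 279 CPM. The means were 199.6 ± 17.5 CPM in WT and 316 ± 40.0 CPM in KO (SD, n = 3 each), a rise of 58.5%. The log2 fold change was 0.67 (SE 0.10, 95% interval 0.45 to 0.88, edgeR quasi-likelihood test, adjusted p = 0.0056), which placed Kdm6b at rank 181 of the 13626 tested genes by p. Per unit of length, Kdm6b went from 28.6 ± 2.55 FPKM in WT, rank 11 of the 36 enzymes, to 45.2 ± 5.85 FPKM in KO, rank 3. In bulk RNA, more transcript per cell and more cells that hold the transcript cannot be told apart, here or for any gene below.

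The rise in Kdm6b was seen in each of the 6 fits that left out a library, at log2 fold changes from 0.57 to 0.75 with a highest adjusted p of 0.0341. Within WT, replicate 2, the lowest in B cell transcripts, had the highest Kdm6b at 217 CPM. Within KO the library lowest in B cell transcripts, replicate 6, had the lowest Kdm6b. A B cell score, the mean log2 CPM of all 18 B cell markers, ran from 5.70 to 7.15 in WT and from 4.57 to 5.28 in KO. Without Cd72 and Ighm the gap was narrower, with 5.21 to 6.98 in WT and 4.18 to 4.97 in KO. The groups thus did not overlap in either score, and the part of B cell transcripts in the Kdm6b rise was not tested. With the score of all 18 markers as covariate, the log2 fold change of Kdm6b was 0.51 (SE 0.18) and no longer passed (edgeR adjusted p = 0.402). Without WT replicates 1 and 3 it was 0.55 with adjusted p = 0.0523, where the lone WT library was assumed to vary like the KO libraries.

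Kdm6b (ENSMUSG00000018476) lies on chromosome 11 from 69398508 to 69413675 on the minus strand of GRCm38, and its closest neighbours changed with it. Tmem88, a membrane protein gene that starts 273 bases beyond the 3′ end of Kdm6b on the same strand, drew 5, 14 and 17 reads in the WT libraries against 79, 89 and 66 reads in the KO libraries. Those reads are 0.64 ± 0.36 CPM in WT and 3.72 ± 0.55 CPM in KO, 2.56 higher on the log2 scale (SE 0.36, edgeR adjusted p = 0.0014). The WT and KO libraries did not overlap for Tmem88, and Tmem88 held 0.86% as many counts as Kdm6b over the 6 libraries. Kdm6bos, an antisense transcript inside the Kdm6b gene from 69401513 to 69402700, had 2.89 ± 0.66 CPM in WT and 6.13 ± 0.65 CPM in KO (log2 fold change 1.09, SE 0.20, edgeR adjusted p = 0.0079). No source used here says whether counting used the strand, so reads of Kdm6b and Kdm6bos cannot be told apart. Kdm6bos held 1.75% as many counts as Kdm6b. Farther along, Naa38 (log2 fold change -0.11, adjusted p = 0.705) and Cyb5d1 (-0.20, adjusted p = 0.404), 1827 and 2876 bases away, did not pass the edgeR test. Across all members, 54 annotated genes overlapped or lay within 3000 bases, 37 of them were tested, and the 2 that rose were Tmem88 and Kdm6bos, with 0 lower. Over all genes tested, 3.68% were higher and 2.83% lower, so this count is no result about neighbours.

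**Figure D1:**
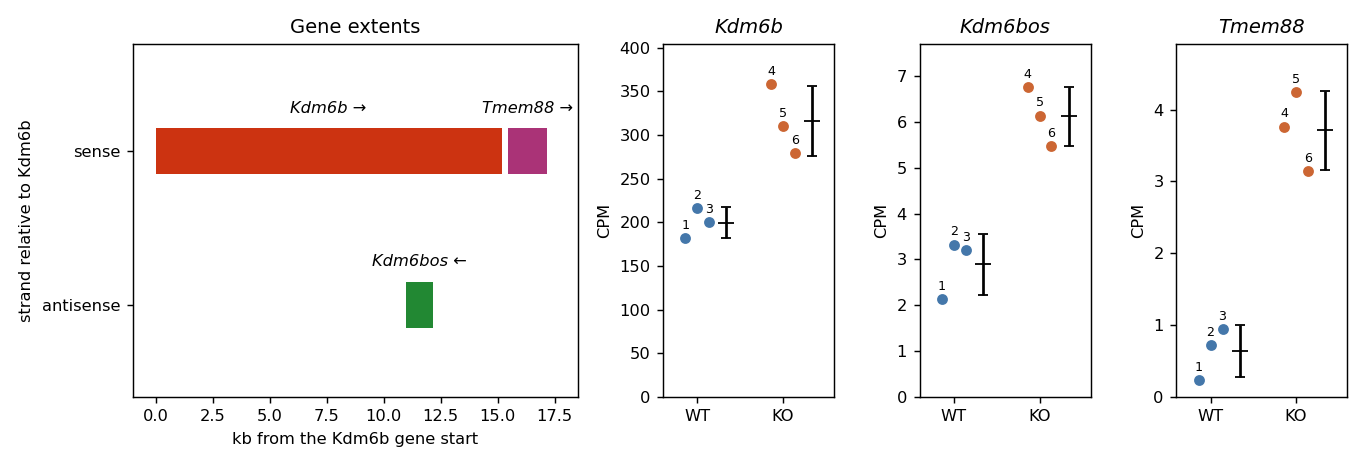
Left, extents of Kdm6b, Tmem88 and Kdm6bos by strand, in kilobases from the Kdm6b gene start. Right, level in CPM for each gene in each library (points, numbered by replicate) with the group mean and SD (bars, n = 3); in all 3 genes the KO libraries sit above the WT libraries.

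Of the 4 PRC2 genes, writers of the mark that Kdm6b removes, 0 passed in edgeR, DESeq2 or limma-voom, with Eed at an unadjusted p under 0.05. Eed, the PRC2 subunit that binds the finished mark, had 85.0, 81.4 and 89.8 CPM in WT and 90.6, 102 and 93.5 CPM in KO replicates 4, 5 and 6. The groups did not overlap, by a narrow margin (0.16 on the log2 scale, SE 0.06, edgeR adjusted p = 0.166). Ezh2, the catalytic subunit prominent in dividing cells, overlapped widely at 83.7 to 102 CPM in WT and 91.0 to 119 CPM in KO (0.15, SE 0.11, edgeR adjusted p = 0.493). Ezh1, its paralogue in resting cells, and Suz12, the scaffold of the complex, had log2 fold changes of -0.03 and 0.02. Within each library, log2 Kdm6b minus log2 Ezh2 was 1.12, 1.08 and 1.03 in WT and 1.98, 1.38 and 1.43 in KO, 0.52 higher on average in KO.

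Kdm6a, the X-linked relative of Kdm6b that acts on the same residue and is not among the 36, was at 159, 163 and 161 CPM in WT and 169, 177 and 150.1 CPM in KO. Its groups overlapped (log2 fold change 0.04, SE 0.06, edgeR adjusted p = 0.777), and the log2 difference between Kdm6b and Kdm6a was 0.62 higher in KO. Kdm7a, whose product also acts on H3K27 besides H3K9, was at -0.04 (SE 0.10), and the difference between Kdm6b and Kdm7a was 0.71 higher in KO. Of 7 accessory subunits of PRC2, 0 passed in edgeR, DESeq2 or limma-voom and 0 had an unadjusted p under 0.05, with log2 fold changes from -0.03 to 0.14 (lowest edgeR adjusted p = 0.420, for Rbbp7). PRC1, the complex that reads the H3K27 mark, had 1 of 18 tested subunits higher and 0 lower, beside 3.68% and 2.83% of all genes. That subunit was Pcgf2, at 5.65, 5.98 and 7.97 CPM in WT and 9.87, 11.2 and 10.7 CPM in KO, without overlap (0.70, SE 0.15, edgeR adjusted p = 0.0169).

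At H3K4 the called changes ran the other way, and they lay in the pair of large enhancer enzymes. Kmt2c and Kmt2d, of the Mll family, are paralogues that place H3K4 monomethylation at enhancers within complexes that also hold Kdm6a. Both genes lie on a minus strand of GRCm38, Kmt2c (ENSMUSG00000038056) on chromosome 5 from 25271798 to 25498783 and Kmt2d (ENSMUSG00000048154) on chromosome 15 from 98831669 to 98871204. The RefSeq promoter windows (250 bases before to 50 bases after the start, build GRCm38.p6) of this pair are printed because the pair fell together. Capitals mark every match of the SP motif GGGCGG on either strand, written CCGCCC on the reverse strand, with overlapping matches merged. The Kmt2c window is chr5:25498734-25499033 and the Kmt2d window is chr15:98871156-98871455, both on the minus strand.
Kmt2c: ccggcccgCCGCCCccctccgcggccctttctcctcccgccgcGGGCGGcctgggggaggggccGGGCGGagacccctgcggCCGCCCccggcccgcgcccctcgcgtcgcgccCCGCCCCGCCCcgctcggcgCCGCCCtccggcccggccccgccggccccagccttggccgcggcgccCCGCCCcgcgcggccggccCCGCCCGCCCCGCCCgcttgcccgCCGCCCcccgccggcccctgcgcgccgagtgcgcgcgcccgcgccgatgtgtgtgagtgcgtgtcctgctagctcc
Kmt2d: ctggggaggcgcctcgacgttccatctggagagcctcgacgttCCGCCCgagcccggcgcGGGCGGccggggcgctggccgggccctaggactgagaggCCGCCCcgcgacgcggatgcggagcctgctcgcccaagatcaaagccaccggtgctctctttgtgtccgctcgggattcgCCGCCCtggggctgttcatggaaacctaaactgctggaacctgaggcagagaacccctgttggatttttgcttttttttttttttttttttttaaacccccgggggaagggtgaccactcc

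The Kmt2c window is 88.0% G and C with 56 CpG dinucleotides and 12 SP matches, and the Kmt2d window is 62.7% G and C with 27 CpG dinucleotides and 4 SP matches. A match of these letters occurs in 35.7% of 32851 RefSeq promoters and in 17 of the 26 members that the promoter table holds. The median CpG number was 29 over member promoters and 7 over all promoters. Neither window holds TGANTCA (AP-1), TGACGTCA (cAMP response element), CCGGAAG (ETS), CACGTG (E-box) or CCAAT on either strand, nor the longer NRF1 and YY1 motifs. A match is a string of letters and not a bound site, and a missing match says nothing of the factor.

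Kmt2c had 456, 455 and 438 CPM in WT replicates 1, 2 and 3 and 397, 331 and 318 CPM in KO replicates 4, 5 and 6. Its groups did not overlap, and KO replicate 4 lay closest to WT. The means were 449.7 ± 10.2 CPM in WT and 349 ± 42.3 CPM in KO (SD, n = 3 each), and Kmt2c fell by 22.5%. The log2 fold change was -0.37 (SE 0.07, 95% interval -0.53 to -0.20, edgeR adjusted p = 0.0144).

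Kmt2d had 1163, 1095 and 1087 CPM in WT and 973, 809.9 and 821 CPM in KO replicates 4, 5 and 6. Again no KO library reached the lowest WT library. With means of 1115 ± 41.8 and 868 ± 91.4 CPM, Kmt2d fell by 22.1% (log2 fold change -0.36, SE 0.07, 95% interval -0.51 to -0.21, edgeR adjusted p = 0.0095). Per length, Kmt2d was the most abundant of the 36 transcripts in WT at 56.1 ± 2.09 FPKM and ranked 4 in KO at 43.6 ± 4.66 FPKM, while Kmt2c went from 22.1 ± 0.53 to 17.1 ± 2.11 FPKM. Within libraries, log2 Kmt2c minus log2 Kmt2d was -1.31 ± 0.04 in WT and -1.32 ± 0.04 in KO, a difference within the spread of the libraries.

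The 2 calls differed in how far they rested on single libraries. Kmt2d passed in 5 of 6 fits that left out a library (log2 fold change -0.45 to -0.31), missing without KO replicate 6 (adjusted p = 0.055). Kmt2c passed in 3 of 6 (-0.47 to -0.30) and missed when WT replicate 3 (edgeR adjusted p = 0.0539), KO replicate 5 (0.0709) or KO replicate 6 (0.0562) was removed. With the B cell score as covariate, the values were -0.37 (adjusted p = 0.464) for Kmt2c and -0.32 (adjusted p = 0.497) for Kmt2d.

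The other Kmt2 genes had smaller differences that did not pass. Kmt2a, or Mll1, the founding member that binds menin, had 829.6, 880.5 and 794 CPM in WT and 821, 671 and 666 CPM in KO replicates 4, 5 and 6. KO replicate 4 lay inside the WT range and the other KO libraries lay below it (log2 fold change -0.21, SE 0.08, edgeR adjusted p = 0.151). Without that library, the Kmt2a value was -0.32 and passed (edgeR adjusted p = 0.008). Kmt2a passed in only 1 of 6 fits that left out a library (highest edgeR adjusted p = 0.383).

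Kmt2b, the closest relative of Kmt2a, was at 404, 402 and 379 CPM in WT and 400.1, 351 and 360.0 CPM in KO (-0.09, SE 0.06, edgeR adjusted p = 0.401). Kmt2e, whose SET domain has no settled histone activity, was at 408, 397 and 396.5 CPM in WT and 417, 366 and 355 CPM in KO (-0.08, SE 0.06, edgeR adjusted p = 0.524). Both genes overlapped between groups, with KO replicate 4 the highest KO library in each. The remaining H3K4 methyltransferases Setd1a, Setd1b and Setd7, of which the Setd1 pair serves most promoters, had log2 fold changes from -0.11 to 0.02. The gene model Gm49388 shares 51.2% of the 50-base stretches of Setd1a transcripts, so the Setd1a value is uncertain.

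**Figure D2:**
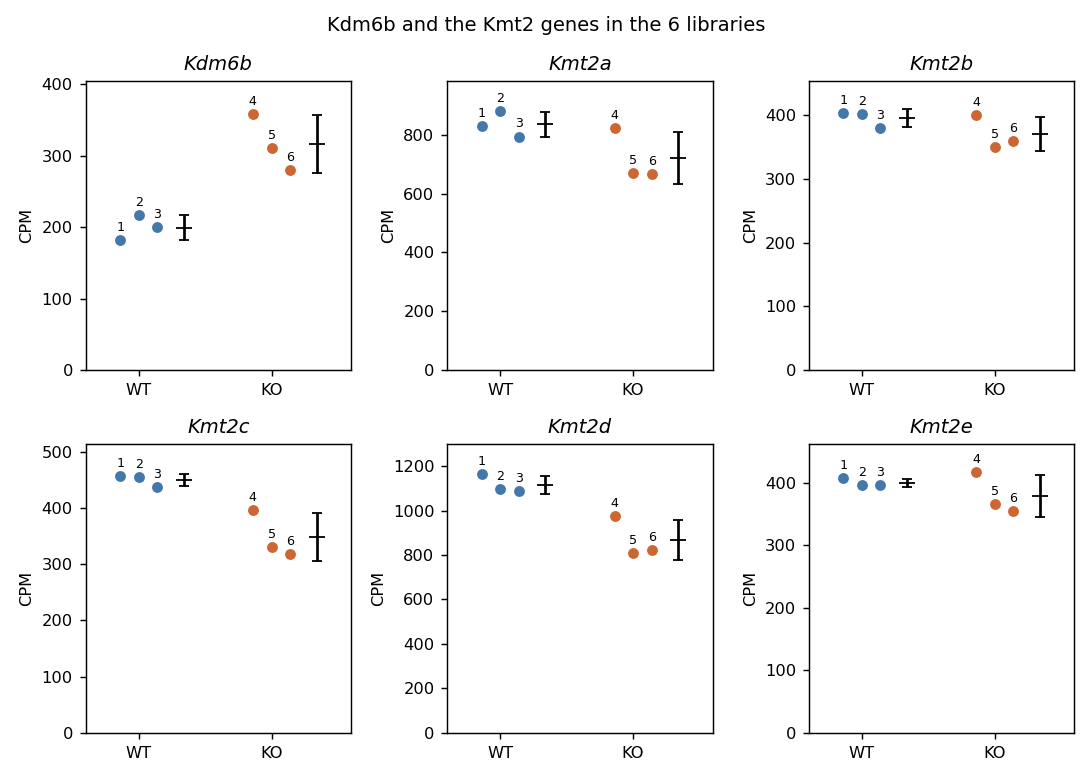
Level in CPM of Kdm6b and the 5 Kmt2 genes in each library (points, numbered by replicate) with the group mean and SD (bars, n = 3), on axes that start at 0. Kdm6b is higher in all KO libraries, Kmt2c and Kmt2d are lower in all KO libraries, and Kmt2a, Kmt2b and Kmt2e overlap, with KO replicate 4 highest of its group in all 6 panels.

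Set against each other inside a library, Kdm6b gained on every Kmt2 gene in KO. Such a ratio removes library scaling but not a library's trend with exonic length. For Kmt2d, the log2 ratio of Kdm6b to the Kmt2 gene was -2.68, -2.34 and -2.44 in WT and -1.44, -1.38 and -1.55 in KO, a shift of 1.03. For Kmt2c the ratio moved from -1.33, -1.07 and -1.13 to -0.15, -0.09 and -0.19, a shift of 1.03 as well. Kdm6b was thus nearly level with Kmt2c in CPM in all KO libraries, though these counts are not per length.

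The shifts against Kmt2a, Kmt2b and Kmt2e were 0.88, 0.76 and 0.74. In none of the 5 pairs did WT and KO libraries overlap, and each exact two-sided permutation test gave p = 0.1, also after adjustment over the 5 pairs, which is the smallest value that 3 libraries against 3 allow. Averaged over the 5 Kmt2 genes, the ratio was -1.70, -1.44 and -1.50 in WT replicates 1, 2 and 3 and -0.63, -0.60 and -0.74 in KO replicates 4, 5 and 6, a difference of 0.89. The 3 KO values spanned less than the WT values, and KO replicate 4, highest in both Kdm6b and the Kmt2 genes, was not apart from the other KO libraries in this ratio. The 5 ratios share their numerator and are not independent of each other. Kdm6b itself was at 0.67, beside -0.09 for Kmt2b and -0.08 for Kmt2e. The shifts against these genes therefore mainly restate the rise in Kdm6b.

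Among the Kmt2 genes the differences were of unequal size. The log2 difference Kmt2d minus Kmt2b was 1.52, 1.44 and 1.52 in WT and 1.28, 1.21 and 1.19 in KO, which is 0.27 lower in KO without overlap. Kmt2c minus Kmt2b was 0.28 lower in KO, also without overlap. Kmt2d minus Kmt2a was 0.15 lower in KO, with the groups only 0.01 apart. Kmt2c and Kmt2d have 20291 and 19931 exonic bases, Kmt2a 16670 and Kmt2b 9596. The part of exonic length in these differences was not tested.

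The partners of the Kmt2 enzymes gave no call. Among 14 subunits of the COMPASS and MLL complexes, 0 passed in edgeR, DESeq2 or limma-voom, 3 had an unadjusted p under 0.05, and the median was -0.00 on the log2 scale. The smallest p was that of Men1, the gene of menin, at 65.3, 66.9 and 63.7 CPM in WT and 60.0, 55.6 and 57.7 CPM in KO, without overlap (-0.18, SE 0.06, edgeR adjusted p = 0.101). Hcfc2 followed with -0.19 (SE 0.08, edgeR adjusted p = 0.179).

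Of the 4 H3K4 demethylases, 0 passed in edgeR, DESeq2 or limma-voom, and 0 had an unadjusted p under 0.05. Kdm5b, which removes trimethylation, was at 88.7, 91.6 and 87.0 CPM in WT and 108, 90.3 and 97.3 CPM in KO replicates 4, 5 and 6, with KO replicate 5 inside the WT range (0.15, SE 0.07, edgeR adjusted p = 0.231). Kdm1b, a flavin-dependent enzyme for lower methylation states, was at 62.3, 60.2 and 59.6 CPM in WT and 58.0, 57.0 and 54.3 CPM in KO. Its groups did not overlap, yet its difference of -0.11 (SE 0.06) did not pass (edgeR adjusted p = 0.338). Kdm1a and Kdm5a were within 0.03 of 0. Among 10 corepressor partners of Kdm1a, 0 passed in edgeR or limma-voom and 2 had an unadjusted p under 0.05. Gfi1, a zinc finger repressor that recruits Kdm1a and a call in DESeq2, was at 24.9, 30.1 and 28.9 CPM in WT and 36.9, 31.8 and 37.0 CPM in KO (0.33, SE 0.09, edgeR adjusted p = 0.0517). The second by p was Rcor2, with 0.52 (SE 0.19, edgeR adjusted p = 0.136).

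At H3K9, 5 methyltransferases and 6 demethylases were measured, and 0 passed in edgeR, DESeq2 or limma-voom, also at an unadjusted p under 0.05. Ehmt2, the G9a enzyme of H3K9 dimethylation, was at 273, 275 and 267 CPM in WT and 251, 248 and 261 CPM in KO, without overlap (log2 fold change -0.10, SE 0.05, edgeR adjusted p = 0.272). Setdb2 had -0.13 (SE 0.08, edgeR adjusted p = 0.355). Suv39h2, at 5.35 ± 0.52 CPM in WT and 5.64 ± 0.57 CPM in KO, was the lowest of the 36 transcripts and had the widest interval, from -0.28 to 0.42. Ehmt1, the partner of Ehmt2, and Setdb1, a silencer of endogenous retroviruses, were at -0.04 and -0.05.

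Among the H3K9 demethylases, Kdm4c had the smallest p (0.06, SE 0.06, edgeR adjusted p = 0.653), followed by Jmjd1c (-0.05, SE 0.07, edgeR adjusted p = 0.770), and Kdm3b, Kdm4a, Kdm4b and Kdm7a lay between -0.04 and 0.02. Of 10 tested genes for proteins that bind methylated H3K9 or silence there, 0 passed in edgeR or limma-voom and 2 had an unadjusted p under 0.05. Daxx, a histone chaperone that DESeq2 called, had the smallest p at 126, 131 and 129 CPM in WT and 109.7, 114 and 116 CPM in KO (-0.18, SE 0.06, edgeR adjusted p = 0.0674). Cbx1, a heterochromatin protein, followed with -0.15 (SE 0.06, edgeR adjusted p = 0.179).

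Of 3 H3K36 methyltransferases and 2 demethylases, 0 passed in edgeR, DESeq2 or limma-voom, with Kdm2a at an unadjusted p under 0.05. Ash1l, an H3K36 dimethyltransferase, was at 209.6, 191 and 193 CPM in WT and 203, 171 and 159.8 CPM in KO replicates 4, 5 and 6, with overlap through KO replicate 4 (-0.15, SE 0.08, edgeR adjusted p = 0.319). Without that library the Ash1l value was -0.26 and passed (edgeR adjusted p = 0.0363). Ash1l passed in only 1 of 6 fits that left out a library (highest edgeR adjusted p = 0.636). Nsd1 (-0.13, SE 0.06, edgeR adjusted p = 0.233) and Setd2, which places trimethylation behind elongating polymerase (-0.00, SE 0.06), complete the writers.

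The H3K36 demethylases Kdm2a and Kdm2b, which also bind CpG islands, had log2 fold changes of opposite sign. Kdm2a was at 286, 272 and 274 CPM in WT and 262, 240.2 and 245 CPM in KO, without overlap (-0.16, SE 0.05, edgeR adjusted p = 0.110). Kdm2b was at 102, 107 and 103 CPM in WT and 119.6, 113 and 106 CPM in KO, with overlap (0.12, SE 0.06, edgeR adjusted p = 0.274). The difference between this pair was not tested.

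Dot1l, the H3K79 methyltransferase, was at -0.09 on the log2 scale (SE 0.06, edgeR adjusted p = 0.379). Its 11 elongation partners held 0 calls in edgeR, DESeq2 or limma-voom and 1 gene at an unadjusted p under 0.05, led by Mllt3 with 0.17 (SE 0.06, edgeR adjusted p = 0.141) and Mllt1 with -0.12 (SE 0.06, edgeR adjusted p = 0.313). Setd3, better known as an actin histidine methyltransferase, was at 103, 106 and 105 CPM in WT and 111, 124 and 116 CPM in KO, without overlap (0.16, SE 0.06, edgeR adjusted p = 0.134). Other gene models share 16.4% of its 50-base stretches. Setd5 was at -0.01 (SE 0.05). Among 20 further lysine methyltransferases and demethylases outside the 36, 0 passed in edgeR, DESeq2 or limma-voom and 3 had an unadjusted p under 0.05, with Phf8 (-0.18, edgeR adjusted p = 0.106) and Smyd5 (0.17, edgeR adjusted p = 0.144) first by p.

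**Figure D3:**
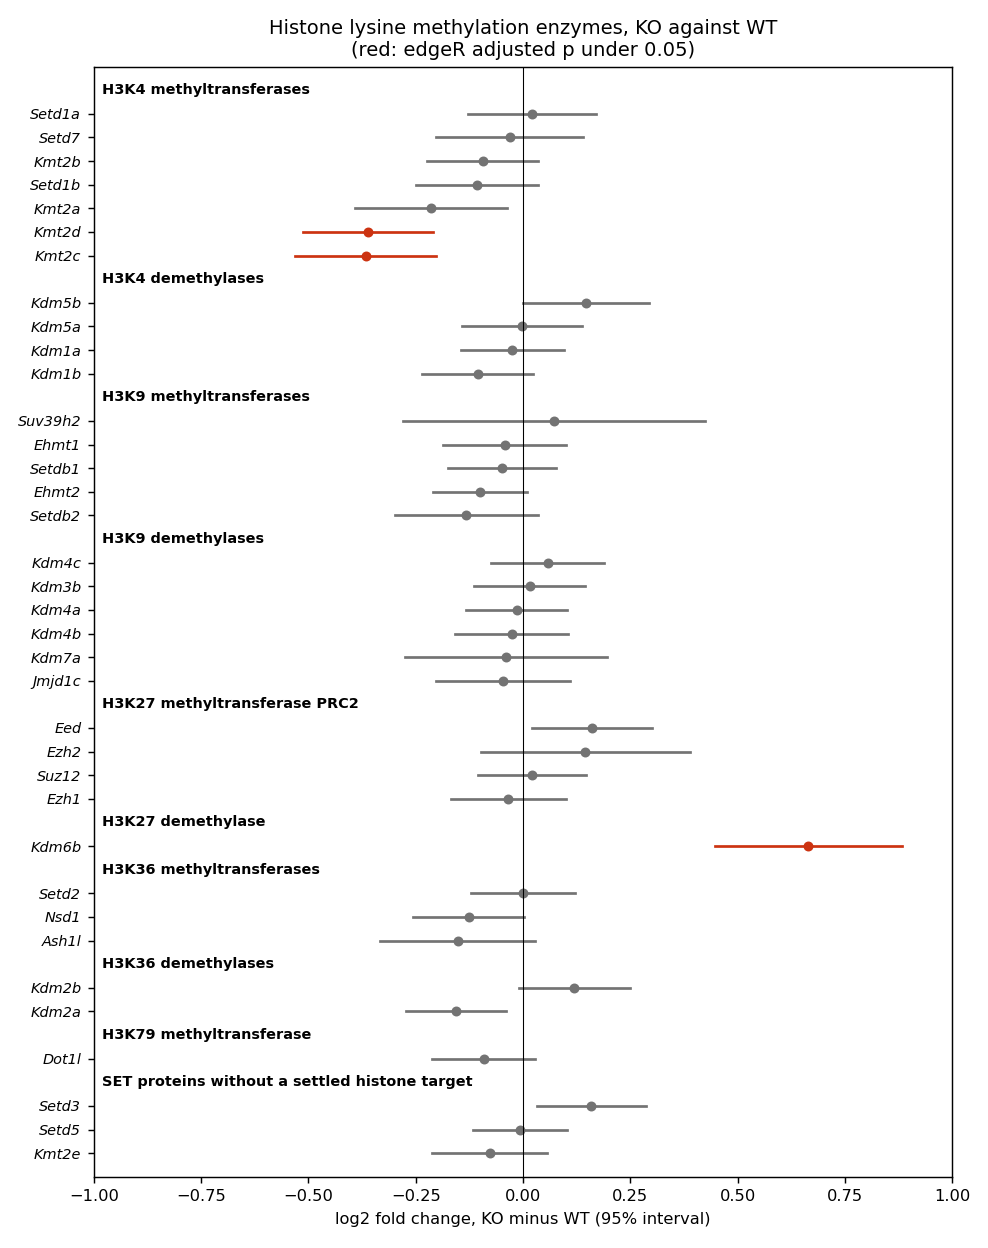
Log2 fold change, KO minus WT, of the 36 enzymes in groups by target residue, with 95% intervals from edgeR (3 libraries against 3). Kdm6b (0.67), Kmt2d (-0.36) and Kmt2c (-0.37), in red, passed an adjusted p of 0.05, and the other 33 values lie between -0.21 and 0.16.

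Counted over the whole family, 3 of 36 members passed, beside 6.50% of all 13626 genes tested (886 genes). By direction, 1 member was higher, beside 3.68% of all genes, and 2 were lower, beside 2.83%. DESeq2 and limma-voom called the same 3 members. These shares are near the background, so the number of calls is no result about the family. At an unadjusted p under 0.05 stood 7 members, beside 21.8% of all genes, and 8 members had groups without overlap (3 with KO above WT and 5 below), beside 26.3%. The median log2 fold change was -0.03 over the members and 0.00 over all genes, and the median size regardless of sign was 0.09 over the members and 0.12 over all genes.

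The log2 fold change was below 0 in 25 members and above 0 in 11. Of 23 genes for methyltransferases or their core subunits, Kmt2e, Setd3 and Setd5 included, 17 were below 0, with a median of -0.05. By the test 0 of them were higher and 2 lower. Demethylases had 8 of 13 below 0, with 1 higher, 0 lower and a median of -0.02. The share of all genes below 0 was not counted. Among genes over 30 CPM, length classes from 4000 exonic bases up had medians from -0.01 to -0.08. These counts of signs are therefore no result about the members. Intervals for the 33 uncalled members lay within -0.39 and 0.42, so a change beyond these bounds lies outside the interval of every one of them. The lowest count of a member in any library was 89, and the standard errors ran from 0.05 to 0.16. No 50-base stretch was shared between 2 members, so no stretch of that length fits more than 1 of them. Besides Setd1a and Setd3, transcripts of other genes shared 24.1% of the stretches of Kdm3b, 12.5% of Kdm2b, 10.2% of Setdb1, 8.59% of Kmt2e and 8.16% of Kdm1b. These are shares of sequence and not of reads. How far they make the values of these genes uncertain was not tested. With strand use unknown, overlap with a tested gene on the opposite strand touches 10 members, most of all Suv39h2, Kdm1b and Setdb1, whose partners Dclre1c, Dek and Cers2 held 634%, 443% and 156% as many counts as the member.

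The KO libraries differed in a trend with exonic length that was not limited to long transcripts or to the members. KO replicate 4 was the highest KO library in 28 of 36 members, replicate 5 in 5 and replicate 6 in 3. Among the longest members, Kmt2c, Kmt2d, Setd5, Jmjd1c, Nsd1, Kmt2a and Kdm5b, with at least 16000 exonic bases each, this held in 7 of 7. Their log2 fold changes ran from -0.37 in Kmt2c to 0.15 in Kdm5b. The share of all genes with KO replicate 4 highest was not counted, so these counts are no result about the members.

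Across all 183 genes of that length with a mean over 30 CPM, 16 were lower (8.74%) and 3 higher (1.64%), and the median log2 fold change was -0.08. Kmt2c and Kmt2d are among the 16. Over all genes tested, 2.83% were lower and 3.68% higher. Classes of shorter genes over 30 CPM had 2.24% to 3.59% lower and 1.43% to 5.62% higher. The median deviation of the 183 long genes from the mean of the 6 libraries was 0.03, 0.04 and 0.04 in WT replicates 1, 2 and 3. In KO replicates 4, 5 and 6 it was 0.07, -0.05 and -0.13. For 490 genes over 30 CPM with under 2000 exonic bases, the order in KO replicates 4, 5 and 6 was reversed, at -0.06, -0.01 and 0.07. For genes of 12000 to 16000 exonic bases the values were 0.07, -0.02 and -0.08. With an offset for each library's trend with exonic length, an alternative added after seeing the data, Kmt2c was at -0.31 (edgeR adjusted p = 0.0031), Kmt2d at -0.31 (adjusted p = 0.0036) and Kdm6b, of 6954 exonic bases, at 0.66 (adjusted p = 0.0036). All 3 passed with that offset, and Kmt2a was at -0.18 without passing (edgeR adjusted p = 0.079). The offset was fitted to these same libraries, and the part of exonic length in the lower Kmt2c and Kmt2d values was not tested.

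**Figure D4:**
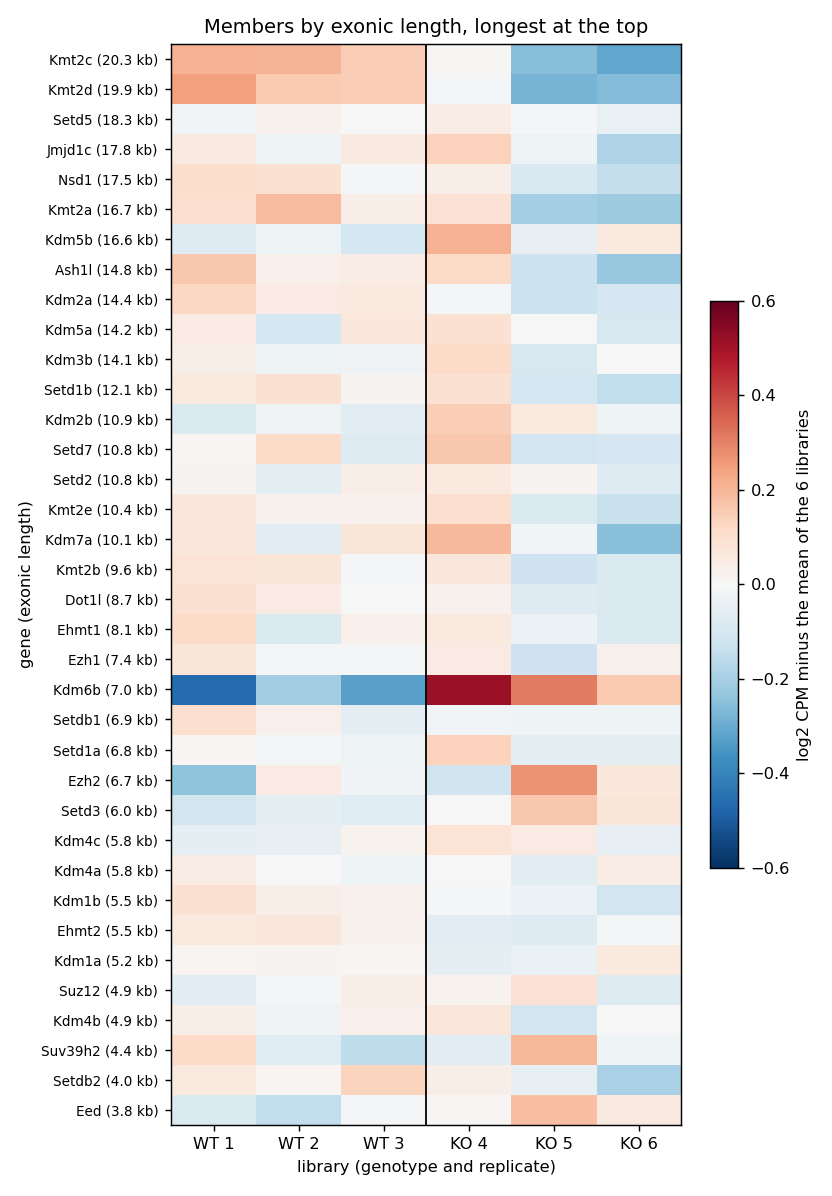
Log2 CPM of each of the 36 enzymes minus its mean over the 6 libraries (colour), with rows ordered by exonic length and libraries in columns. Kdm6b stands out as high in KO replicates 4, 5 and 6, and in the long genes at the top KO replicate 4 is paler or redder than KO replicates 5 and 6.

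**Figure D5:**
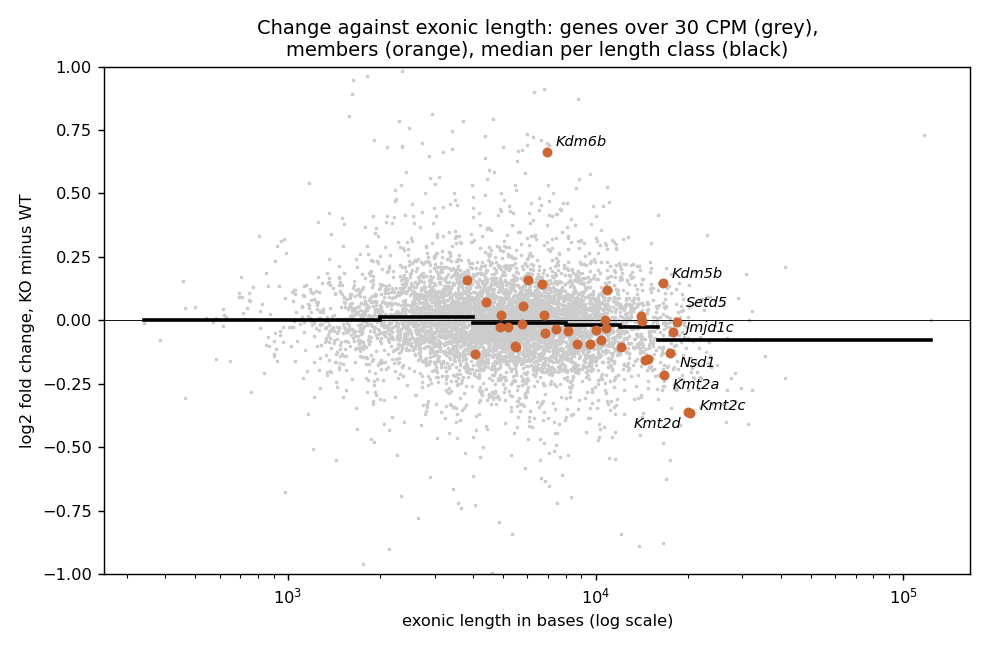
Log2 fold change, KO minus WT, against exonic length (log scale) for 6366 genes with a mean over 30 CPM (grey; 57 beyond 1 in either direction are not drawn), the 36 enzymes (orange) and the median of each length class (black). The median of genes with at least 16000 exonic bases is -0.08, and Kmt2c and Kmt2d lie below it while Setd5 and Kdm5b lie above.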

How the data were processed

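Bulk RNA of sorted Tregs made up 6 libraries, 3 from each genotype. Reads were handled with bcl2fastq, STAR 2.4.2a and DESeq2 on GRCm38, per the submitters' processing notes. Not given in the sources used here are the counter, its strand setting and the annotation release. Raw counts by Ensembl ID, normalized counts by symbol (a signal with no fixed total) and FPKM by symbol were deposited by the authors. Within a tolerance of 1e-06, the deposited normalized counts equalled raw counts divided by a factor per library for 99.87% to 99.89% of genes over 50 counts, and the deposited FPKM equalled normalized counts divided by a constant per gene for 99.979% of 9335 genes checked.

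Members were matched through gene names and RefSeq synonyms, and a match was kept where the tables' values agreed; all 36 matched. Positions, neighbours and exonic lengths come from GENCODE M21, which matched 35412 of 37187 IDs; unmatched IDs held 0.260% to 0.308% of the counts. The members, lists and tests were chosen with earlier results of these data known.

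The test was edgeR 4.0.16 under R 4.3.3, run on raw counts (low genes removed with filterByExpr, TMM factors, robust quasi-likelihood fit, two-sided, Benjamini-Hochberg over all 13626 genes, threshold 0.05), after the scripts had been tested on simulated data. CPM use the TMM factors, and standard errors and 95% intervals come from the F statistic. Log2 ratios between genes within a library used a prior count of 0.5. Named were Kdm6b, the Kmt2 genes and every member past the threshold, with every library's value; up to 2 members with the smallest p in each residue group without a call; and of each pathway list up to 3 called genes, or 2 as values. Library pairs within a group differed beyond sampling noise. All sample columns were used (0 left out).

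Alternatives were DESeq2 1.42.0, limma-voom (limma 3.58.1), other scaling factors and filters, limma on log2(FPKM + 1) and log2(FPKM + 0.1), and leaving out libraries. A B cell score without Cd72 and Ighm as covariate and the length offset were added after seeing the data. Total counts of 18071928 to 21165063 set the precision, and 0 counts allow up to 3 counts (0.142 to 0.166 CPM), for counting error only.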

Additional observations from a re-analysis of the deposited data

How the results depend on the processing

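No paired analysis was possible because the groups share no replicate numbers. Kdm6b passed in 16 of 19 alternatives, at 0.57 to 0.75. It did not pass with the B cell score as covariate (0.51, adjusted p = 0.402), with that score without Cd72 and Ighm (0.53, adjusted p = 0.268) or without WT replicates 1 and 3 (0.55, adjusted p = 0.0523). In those 3 fits 0 members were higher and 0 lower, and the genes called numbered 40, 75 and 282. At log2(FPKM + 1) and log2(FPKM + 0.1), 404 and 421 genes and 1 member lower were called, Kmt2c missing at adjusted p of 0.062 and 0.0592. With no filter 1645 genes were called and Kmt2a passed (-0.22, adjusted p = 0.006). Leaving out a library gave 367 (without WT replicate 3) to 1364 (without WT replicate 2) genes, and 0 (without KO replicate 6) to 4 (without KO replicate 4) members lower. The averaged ratio of Kdm6b to the Kmt2 genes stayed between 0.81 and 0.94 when a library was left out. Jmjd1c changed sign in 4 fits, to 0.0891 and 0.0685 with the 2 B cell scores and 0.00857 without WT replicates 1 and 3, and ran from -0.131 to 0.0305 (without KO replicate 6) when a library was left out. Kmt2c passed in 11 and Kmt2d in 15 of 19 alternatives, each with a negative value in all 19. Depth limits chiefly Suv39h2, with 89 counts at its lowest. The cause of these changes was not tested.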

Other observations

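Enzymes of histone acetylation, which share many chromatin complexes with the methylation enzymes, gave 1 call among 18 tested genes. Beside the 6.50% of all genes called, this count is no result about the list. Hdac10, a deacetylase known for acting on polyamines, was at 100.4, 84.2 and 91.5 CPM in WT replicates 1, 2 and 3 and 74.2, 72.5 and 72.3 CPM in KO replicates 4, 5 and 6. The groups did not overlap, and Hdac10 fell by 0.33 on the log2 scale (SE 0.07, edgeR adjusted p = 0.0111). Hdac5, a class IIa deacetylase, did not pass at -0.21 (SE 0.06, edgeR adjusted p = 0.0743). The list's median log2 fold change was -0.00, as over all genes (0.00).

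Cd72, listed as a B cell marker, did not follow the other B cell markers. It had 558 CPM in WT replicate 2, where those markers were lowest in WT, and 86.1 and 73.0 CPM in WT replicates 1 and 3, beside 41.2 to 44.9 CPM in KO.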
